A study of Mus musculus with 6 samples.

Results

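The Notch genes of the mouse lung were followed as 10 genes, namely the ligands Jag1, Jag2, Dll1 and Dll4, the receptors Notch1, Notch2, Notch3 and Notch4, and the targets Hes1 and Hey1. They were picked by symbol from the 47069 genes of the count table, with the difference between KO and WT mice already known, so their own differences, calls included, are given as a description that supports nothing. All 10 were counted highly enough in lung to pass the filter on low counts, with between 605 and 9976 reads per mouse. RNA was measured in lungs of adult mice taken at ZT10, which is 10 h after lights on, from 3 WT mice, named WT4 to WT6, and from 3 KO mice, named KO4 to KO6, with 1 library per mouse. The WT mice were C57BL/6J, and the KO mice carried the Zpbp2 tmZuk allele, a deletion of the 5′ part of Zpbp2 with exons 1 to 3, on a C57BL/6J background. The allele is constitutive and came as a B6.129S7 strain that had been kept in the same facility for years, and the control mice were born in the same colony.

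Notch signalling passes between touching cells. A ligand of the Jagged or Delta-like family on one cell binds a Notch receptor on its neighbour, the receptor is cut by an ADAM protease and then by gamma-secretase, and its intracellular part joins RBPJ and a Mastermind coactivator in the nucleus, where the complex turns on repressors of the Hes and Hey families. In lung the pathway is known for sorting airway cells into secretory and ciliated fates, for arterial identity and sprouting of vessels, where Dll4, Jag1, Notch1 and Notch4 act in endothelium, and for smooth muscle and pericytes, where Notch3 acts. Dll1 with Notch2 is also known for the formation of marginal zone B cells and of nonclassical monocytes.

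The promoters of the ligands are shown first, since Jag1, Jag2 and Dll1 were the members that were lower together in KO mice and Dll4 was not. RefSeq for GRCm38.p6 gave promoters for 8 of the 10 members, and Hes1 and Hey1 had no entry. Each line holds the 250 bases before a start site, 5′ to 3′, and capitals mark CpG dinucleotides.
Jag1 (chr2:137116521-137116770, minus strand): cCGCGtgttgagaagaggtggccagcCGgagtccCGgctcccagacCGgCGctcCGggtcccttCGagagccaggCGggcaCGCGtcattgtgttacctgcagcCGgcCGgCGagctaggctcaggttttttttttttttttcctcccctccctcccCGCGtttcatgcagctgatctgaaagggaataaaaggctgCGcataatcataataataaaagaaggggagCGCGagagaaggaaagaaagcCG
Jag2 (chr12:112929496-112929745, minus strand): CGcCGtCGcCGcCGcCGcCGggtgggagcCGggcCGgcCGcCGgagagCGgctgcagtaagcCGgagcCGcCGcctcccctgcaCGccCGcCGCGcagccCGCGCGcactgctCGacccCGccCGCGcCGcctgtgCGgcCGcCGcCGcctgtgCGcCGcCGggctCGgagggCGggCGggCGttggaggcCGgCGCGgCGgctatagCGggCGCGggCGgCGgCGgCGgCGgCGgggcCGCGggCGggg
Dll1, upstream start (chr17:15376933-15377182, minus strand): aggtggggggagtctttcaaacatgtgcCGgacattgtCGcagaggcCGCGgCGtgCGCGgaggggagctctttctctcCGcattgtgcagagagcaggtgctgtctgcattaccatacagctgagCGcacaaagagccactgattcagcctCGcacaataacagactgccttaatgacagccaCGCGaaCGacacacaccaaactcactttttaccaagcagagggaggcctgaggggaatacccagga
Dll1, downstream start (chr17:15375824-15376073, minus strand): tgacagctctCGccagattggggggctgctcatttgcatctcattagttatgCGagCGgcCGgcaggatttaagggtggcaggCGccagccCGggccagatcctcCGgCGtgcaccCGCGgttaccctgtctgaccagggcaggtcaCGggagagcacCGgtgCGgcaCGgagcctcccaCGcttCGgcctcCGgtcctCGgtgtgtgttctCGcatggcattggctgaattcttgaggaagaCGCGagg
Dll4 (chr2:119325534-119325783, plus strand): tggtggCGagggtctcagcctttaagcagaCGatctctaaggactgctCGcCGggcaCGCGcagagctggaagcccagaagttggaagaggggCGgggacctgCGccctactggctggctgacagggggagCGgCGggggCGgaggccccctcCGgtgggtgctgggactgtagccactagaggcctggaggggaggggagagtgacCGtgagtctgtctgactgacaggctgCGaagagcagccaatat
CpG sites were counted in each promoter of a member, and their density did not separate the ligands that were lower from the other members. Jag2 held 54 CpG sites in 250 bases at a GC content of 87.2%, Jag1 held 20, and the starts of Dll1 held 13 and 21. The ratio of observed to expected CpG was 1.14 for Jag2, 0.980 for Jag1, 0.664 and 0.825 for Dll1, and 0.557 for Dll4 with 14 sites. Over all 32851 promoters, which were not limited to genes counted in lung, the median ratio was 0.373, and 34.0% reached 0.6. Among the receptors the ratio was 1.06 for Notch2, 0.588 for Notch1, 0.595 for Notch3 and 0.226 for Notch4, which held 4 CpG sites. The same 250 bases were searched on both strands for the letters TGGGAA (the core bound by RBPJ, in 21.6% of all promoters), CACGTG (the E-box of the clock activators, in 6.02%), AGGTCA (the letters read by REV-ERB and ROR receptors, in 14.0%) and GAANNTTC (a core of the heat shock element, in 6.69%). A single match was found in the 9 member promoters, an AGGTCA from 109 to 104 bases before the downstream start of Dll1.

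The libraries held from 19981428 to 46796908 counted reads. Levels are given as CPM, the count of a gene scaled to the size of its library by the TMM method, on which 3 counts equal from 0.0629 to 0.148 CPM, a limit that covers counting error only. For Zpbp2, the targeted gene, 1 read was counted in WT4, 2 in WT5, 2 in WT6 and 0 in each KO mouse, which is at or under 3 counts in all 6 mice, so the libraries do not check the genotype. The markers of lung were present, with Sftpc of type 2 alveolar cells between 9327 and 13765 CPM, Scgb1a1 of club cells between 19547 and 33009.9 CPM, and the endothelial gene Cdh5 between 790.0 and 938 CPM. Xist lay between 715 and 994 CPM. The 4 Y-linked genes followed (Ddx3y, Eif2s3y, Kdm5d and Uty) had 9, 2, 7 and 6 counts in KO5. Outside KO5 they had 1 count of Uty in WT5 and 0 elsewhere. The labels give no sex, and the paper names both sexes for the mice it collected. Several libraries stood apart. KO5 held the most B cell RNA (1012 CPM summed over 8 markers, against 128 to 284 CPM in the other 5 mice), KO4 was low in the capillary genes Ednrb (29.2 CPM against 106 to 134) and Apln (14.2 CPM against 37.6 to 44.0), and WT6 was high in immediate early genes (1308 CPM summed over 8 genes against 482 to 736). Values of the Notch genes without single mice are given where they differ most.

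The Jagged ligands were lower in every KO mouse. Jag1 (ENSMUSG00000027276, chromosome 2 from 137081456 to 137116644 of GRCm38, minus strand), the Jagged ligand of endothelium and smooth muscle, measured 81.8, 87.5 and 77.5 CPM in WT4, WT5 and WT6 and 63.1, 53.9 and 62.2 CPM in KO4, KO5 and KO6. The lowest WT mouse lay above the highest KO mouse. The means were 82.3 ± 4.98 CPM in WT and 59.7 ± 5.08 CPM in KO mice (SD, n = 3 each), a log2 fold change of -0.46 with a standard error of 0.0774. Jag2 (ENSMUSG00000002799, chromosome 12 from 112907819 to 112929776, minus strand), which is known from airway basal cells and other epithelia, measured 71.5, 73.7 and 71.0 CPM in WT4, WT5 and WT6 and 51.1, 49.5 and 50.5 CPM in KO4, KO5 and KO6. The mice of each group lay close together, and the groups did not overlap. The means were 72.1 ± 1.43 CPM in WT and 50.4 ± 0.820 CPM in KO mice (SD, n = 3 each), a log2 fold change of -0.52 with a standard error of 0.0442.

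Among the Delta-like ligands, Dll1 was lower and Dll4 was not. Dll1 (ENSMUSG00000014773, chromosome 17 from 15367354 to 15376872, minus strand) measured 62.4, 57.7 and 61.9 CPM in WT4, WT5 and WT6 and 45.8, 31.6 and 29.9 CPM in KO4, KO5 and KO6. KO4 lay between the WT mice and the other KO mice, and the groups did not overlap. The means were 60.7 ± 2.58 CPM in WT and 35.8 ± 8.73 CPM in KO mice (SD, n = 3 each), a log2 fold change of -0.77 with a standard error of 0.154, and -0.98 without KO4. In the annotation 20.5% of the exon bases of Dll1 are shared with the lincRNA A930024N18Rik on the opposite strand, which had 44 to 129 counts per mouse, and the setting used to count strand is not given in the sources used here. Dll4 (ENSMUSG00000027314, chromosome 2 from 119325784 to 119335962, plus strand), the Delta-like ligand of arterial and sprouting endothelium, measured 94.8, 95.4 and 86.4 CPM in WT4, WT5 and WT6 and 99.7, 77.1 and 92.9 CPM in KO4, KO5 and KO6. Its groups overlapped, since both the highest and the lowest value came from KO mice. The log2 fold change of Dll4 was -0.04 with a standard error of 0.0977, and it was 0.06 without KO5.

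**Figure D1:**
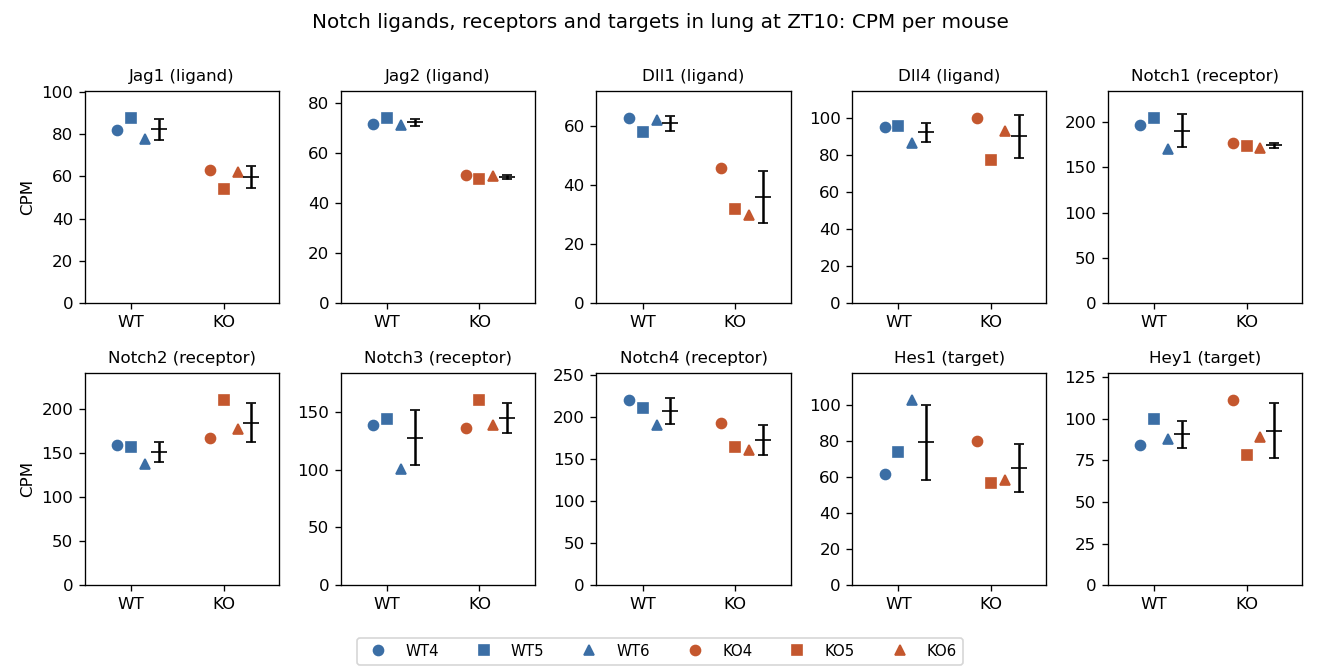
CPM of each of the 10 Notch genes per mouse (y axis, from 0, one scale per panel) in WT mice (blue) and KO mice (orange), with the group mean and SD (n = 3) in black. The 3 KO values of Jag1, Jag2 and Dll1 lie below all WT values, those of Notch2 lie above them, and the groups overlap in the other 6 genes.

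The receptors differed in direction from each other. Notch2 (ENSMUSG00000027878, chromosome 3 from 98013527 to 98150361, plus strand) measured 159, 157 and 137 CPM in WT4, WT5 and WT6 and 166, 209 and 177 CPM in KO4, KO5 and KO6. It was the only member whose KO values all lay above the WT values, and its highest value was in KO5. The log2 fold change was 0.29 with a standard error of 0.0990, and 0.18 without KO5. Notch4 (ENSMUSG00000015468, chromosome 17 from 34564268 to 34588503, plus strand), the receptor known mainly from endothelium, measured 219, 211 and 189.8 CPM in WT4, WT5 and WT6 and 193, 164 and 161 CPM in KO4, KO5 and KO6. Its groups overlapped, since WT6 lay below KO4. The log2 fold change was -0.26 with a standard error of 0.0888, and -0.35 without KO4.

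Notch1 (ENSMUSG00000026923, chromosome 2 from 26457903 to 26516663, minus strand), the receptor with the widest use across tissues, measured 197, 204 and 169.9 CPM in WT4, WT5 and WT6 and 177, 174 and 172 CPM in KO4, KO5 and KO6. WT6 was the lowest of all 6 mice, and the log2 fold change was -0.13 with a standard error of 0.0745, -0.21 without WT6 and -0.08 without WT5. Notch3 (ENSMUSG00000038146, chromosome 17 from 32120820 to 32166852, minus strand), the receptor of vascular smooth muscle and pericytes, measured 139, 144 and 100.5 CPM in WT4, WT5 and WT6 and 136, 159.9 and 138 CPM in KO4, KO5 and KO6. Here too WT6 was the lowest mouse and the groups overlapped. The log2 fold change was 0.18 with a standard error of 0.139, and 0.03 without WT6.

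The targets Hes1 and Hey1 overlapped between the groups. Hes1 (ENSMUSG00000022528, chromosome 16 from 30064384 to 30067796, plus strand), a short-lived bHLH repressor that Notch induces, measured 61.9, 73.7 and 102 CPM in WT4, WT5 and WT6 and 80.2, 56.6 and 58.2 CPM in KO4, KO5 and KO6. Its log2 fold change of -0.29 had a standard error of 0.206 and was -0.06 without WT6, the mouse with the highest value, -0.47 without KO4 and -0.44 without WT4. WT6 and KO4 held the highest and the second-highest value both of Hes1 and of the immediate early gene Egr1. Egr1 measured 13.6, 28.2 and 116 CPM in WT4, WT5 and WT6 and 55.3, 23.0 and 31.7 CPM in KO4, KO5 and KO6. The other mice were ordered differently, with WT4 lowest in Egr1 and KO5 lowest in Hes1. WT6 was highest in every listed immediate early gene, and KO4 was second in all but Jun and Atf3. The part of handling in Hes1 was not tested. Hey1 (ENSMUSG00000040289, chromosome 3 from 8663359 to 8667256, minus strand), a bHLH repressor that Notch induces in endothelium, measured 84.5, 99.6 and 87.8 CPM in WT4, WT5 and WT6 and 111, 78.4 and 89.1 CPM in KO4, KO5 and KO6. The highest and the lowest value of Hey1 were both in KO mice. Its log2 fold change was 0.03 with a standard error of 0.129, and it lay between -0.12 without KO4 and 0.14 without KO5.

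Read against all 17037 genes tested, 3 of the 10 members (Jag1, Jag2 and Dll1) had an adjusted p-value ≤0.05 and were lower in KO mice, where 2.67% of all genes did, and 0 members were higher, where 3.72% of all genes were (quasi-likelihood test of edgeR, Benjamini-Hochberg adjustment). At an unadjusted p under 0.05 stood 5 of the 10 members and 25.5% of all genes. The KO values of 3 members all lay below the WT values, as for 15.6% of all genes, and those of 1 member all lay above, as for 17.0% of all genes. With the added threshold of |log2 fold change| ≥1.5, which 0.640% of all genes passed together with the first, 0 members were left. The median log2 fold change was -0.19 over the 10 members, -0.49 over the 4 ligands and 0.03 over the 4 receptors, beside 0.00 over all genes tested. Because this contrast chose the members, these counts describe them and no more. When single mice were left out, the fold change of Jag1 on the log2 scale stayed between -0.51 and -0.40, that of Jag2 between -0.53 and -0.50 and that of Dll1 between -0.98 and -0.66. An adjusted p-value ≤0.05 was kept by Jag2 in 5 of the 6 fits (lost without WT5), by Jag1 in 2 (without KO4 and without KO5) and by Dll1 in 1 (without KO4).

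**Figure D2:**
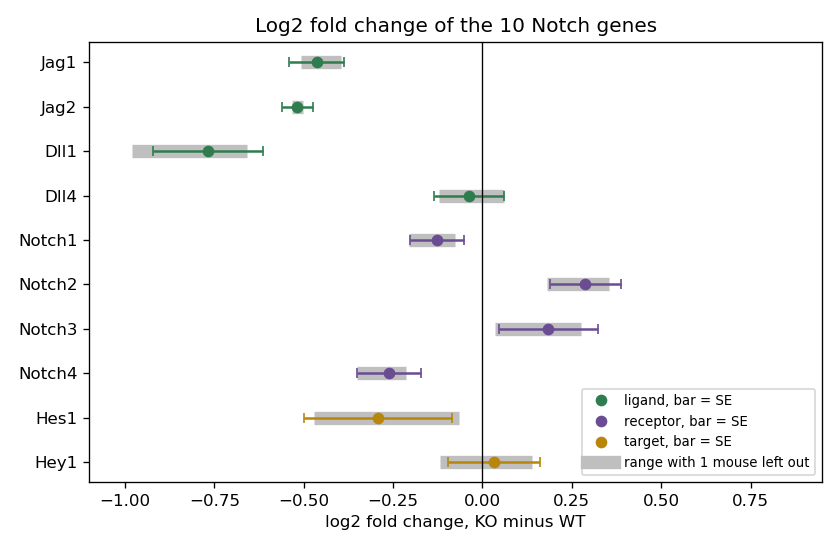
Log2 fold change of KO against WT mice (x axis) for the 10 Notch genes by role, with bars for the standard error and grey bands for the range when 1 mouse is left out. The highest value among Jag1, Jag2 and Dll1 in such a fit is -0.396, for Jag1 without KO5, and the bands of Dll4 and Hey1 cross 0.

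To compare levels between genes, CPM was divided by the length of the annotated exons in kb, joined over all transcripts of the gene. That length can exceed the length of any single transcript, so the order and the shares given below depend on the annotation. In WT mice Hes1 was the most abundant member with 39.0 ± 10.3 CPM per kb, followed by Hey1 with 27.8 ± 2.43, Notch4 with 25.6 ± 1.90 and Dll4 with 23.9 ± 1.31 CPM per kb (SD, n = 3). These 4 overlapped with their neighbours in the order, and the lowest WT value of Dll4 lay above the highest of Notch3, the next in order. Notch3 with 15.8 ± 2.93, Dll1 with 14.4 ± 0.611, Jag1 with 14.1 ± 0.854, Notch2 with 14.0 ± 1.10 and Notch1 with 13.4 ± 1.27 CPM per kb overlapped too (SD, n = 3). Jag2 was the least abundant at 10.3 ± 0.206 CPM per kb (SD, n = 3), below all values of Notch1. In KO mice the order from Notch1 downwards was Notch1 at 12.2 ± 0.188, Jag1 at 10.2 ± 0.872, Dll1 at 8.48 ± 2.07 and Jag2 at 7.23 ± 0.118 CPM per kb (SD, n = 3), so that the 3 ligands took the last places. Their order among themselves was not clear, since Dll1 overlapped with both Jag1 and Jag2 in KO mice.

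Summed over the 4 ligands, the level was 63.7, 64.0 and 60.6 CPM per kb in WT4, WT5 and WT6 and 54.9, 43.9 and 49.1 CPM per kb in KO4, KO5 and KO6, without overlap. The summed level of the 4 receptors was 73.0, 72.8 and 60.6 CPM per kb in the WT mice and 68.6, 71.7 and 65.6 CPM per kb in the KO mice, and these overlapped. The make-up of both sums differed between the groups. Dll4 made up 38.1% ± 0.947 of the ligand sum in WT and 47.3% ± 1.75 in KO mice, while Dll1 made up 22.9% ± 1.45 and 17.1% ± 2.68 (SD, n = 3). The larger share of Dll4 follows from the lower values of the other ligands. Its own level was 23.9 ± 1.31 CPM per kb in WT and 23.3 ± 3.01 in KO mice (SD, n = 3). Among receptors the share of Notch2 was 20.4% ± 0.560 in WT and 24.9% ± 2.29 in KO mice, and that of Notch4 was 37.4% ± 1.44 and 31.2% ± 3.32 (SD, n = 3).

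**Figure D3:**
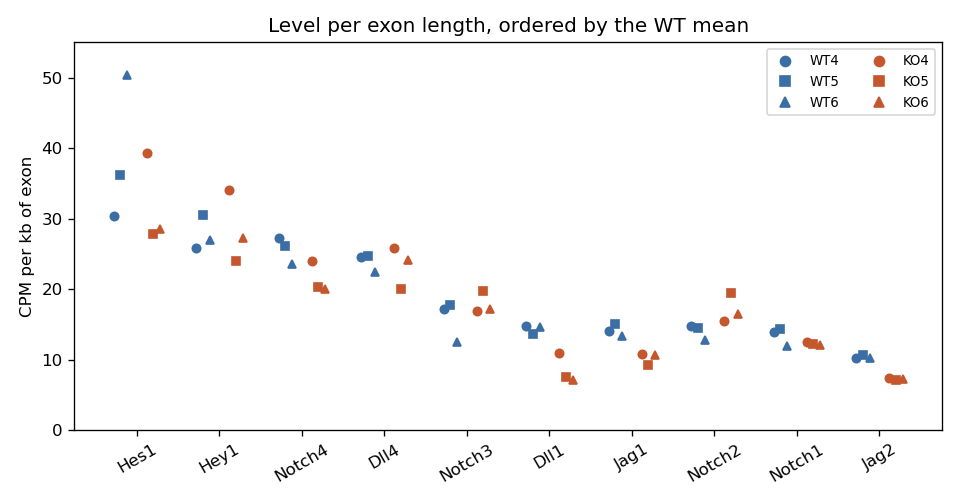
Level of each Notch gene in CPM per kb of exon (y axis, from 0) for each mouse, ordered by the WT mean from Hes1 to Jag2. Hes1, Hey1, Notch4 and Dll4 sit above the other genes in WT mice (blue), and the KO values (orange) of Dll1, Jag1 and Jag2 lie under their WT values.

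The rest of the pathway was read from a list of 68 further genes, of which 64 were tested. Of these, 2 were higher and 4 lower in KO mice at an adjusted p-value ≤0.05, which is 9.38% of the list beside 6.39% of all genes tested, and 58 did not pass. Their median log2 fold change was -0.03. Nrarp, a feedback inhibitor that Notch induces, fell, with 61.4, 52.5 and 57.7 CPM in WT4, WT5 and WT6 and 46.0, 37.9 and 37.3 CPM in KO4, KO5 and KO6. The groups did not overlap, and the log2 fold change was -0.50 with a standard error of 0.0981 and a Benjamini-Hochberg adjusted p of 0.0343 (quasi-likelihood test of edgeR). Nrarp was the only one of the 9 other targets tested to pass, and the log2 fold changes of Hes7 (-0.19), Heyl (-0.06), Hey2 (-0.19), Efnb2 (-0.12), Ccnd1 (-0.38), Myc (0.33) and Gata3 (0.10) did not. DESeq2 called Ccnd1 as well, and the exact test of edgeR called Cr2 as well. Cr2, a Notch2 target in marginal zone B cells and itself a B cell marker, had 46.5 CPM in KO5 against 5.27 to 17.7 CPM in the other 5 mice, and its log2 fold change of 1.77 did not pass (adjusted p = 0.104, quasi-likelihood test of edgeR) and was 0.88 without KO5.

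Among the 6 genes for the endocytosis of ligands, Mib1 and Neurl3 passed in opposite directions. Mib1, the ubiquitin ligase that ligands need to signal, fell from 167 ± 4.19 to 141 ± 4.29 CPM (SD, n = 3), a log2 fold change of -0.24 with a standard error of 0.0487 and a Benjamini-Hochberg adjusted p of 0.0373 (quasi-likelihood test of edgeR). Neurl3, a relative of Neuralized that is known in lung as a gene induced by inflammation, measured 26.5, 22.2 and 21.9 CPM in WT4, WT5 and WT6 and 38.9, 48.0 and 36.5 CPM in KO4, KO5 and KO6. The groups did not overlap, and Neurl3 rose by a log2 fold change of 0.81 with a standard error of 0.124 and a Benjamini-Hochberg adjusted p of 0.0211 (quasi-likelihood test of edgeR). Of the 5 genes for receptor glycosylation 1 passed, Rfng, a fringe enzyme that tunes which ligand a receptor answers. It fell from 29.7 ± 1.79 to 23.0 ± 0.346 CPM (SD, n = 3), with a log2 fold change of -0.36 with a standard error of 0.0659 and a Benjamini-Hochberg adjusted p of 0.0286 (quasi-likelihood test of edgeR), and the other fringe genes Lfng (-0.05) and Mfng (-0.15) did not pass.

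In the nucleus, Maml2, a Mastermind coactivator, rose from 47.6 ± 0.417 to 54.6 ± 0.917 CPM (SD, n = 3), a log2 fold change of 0.20 with a standard error of 0.0445 and a Benjamini-Hochberg adjusted p of 0.0479 (quasi-likelihood test of edgeR). Maml2 did not pass in DESeq2 (adjusted p = 0.0523), in the exact test of edgeR (adjusted p = 0.135) or with no filter on low counts (adjusted p = 0.109 in edgeR). Rbpj, the DNA-binding partner of all 4 receptors, measured 60.5, 59.5 and 59.4 CPM in WT4, WT5 and WT6 and 69.3, 66.8 and 67.5 CPM in KO4, KO5 and KO6, and at a log2 fold change of 0.18 it did not pass (adjusted p = 0.0525, quasi-likelihood test of edgeR). Of the 13 corepressors 1 passed, Ctbp2, which fell from 67.8 ± 2.12 to 56.2 ± 2.52 CPM (SD, n = 3), a log2 fold change of -0.27 with a standard error of 0.0534 and a Benjamini-Hochberg adjusted p of 0.0345 (quasi-likelihood test of edgeR). Of the 10 genes for receptor cleavage 0 passed in edgeR, with 2 at an unadjusted p under 0.05 and 0 by DESeq2, and of the 10 for turnover and inhibition 0 passed, with 3 at an unadjusted p under 0.05 and 1 by DESeq2. The lowest adjusted p-values there were 0.149 for the gamma-secretase subunit Ncstn (log2 fold change 0.15) and 0.0562 for the ubiquitin ligase Dtx3l (log2 fold change 0.26). Of the 5 other ligands and ligand-like genes, Egfl7 (-0.29) and Dner (-0.85) were tested and did not pass in edgeR (both at an unadjusted p under 0.05, and 1 by DESeq2), and Dll3, Dlk1 and Dlk2 were too low to be tested, as was the target Hes5. When single mice were left out, Neurl3 passed in 4 of 6 fits (not without WT5 or WT6), Rfng and Ctbp2 in 2 (without KO4 or KO5), Nrarp in 1 (without KO4) and Mib1 and Maml2 in 0, where the adjusted p-values of edgeR ran up to 0.154 for Mib1 and 0.182 for Maml2, and no sign changed.

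**Figure D4:**
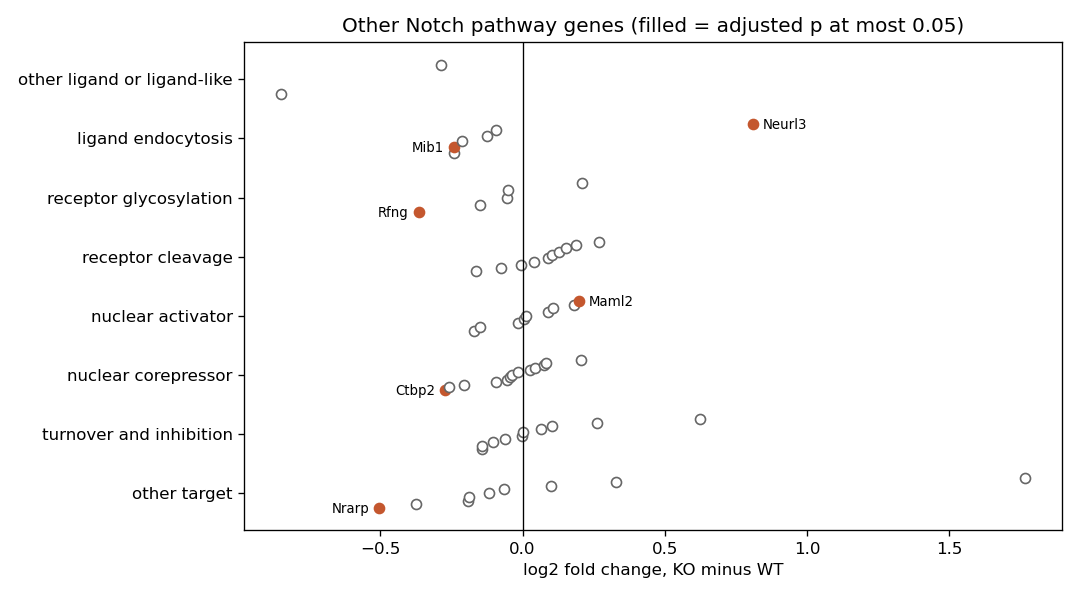
Log2 fold change of KO against WT mice (x axis) for the 64 tested pathway genes outside the 10 members, by role. Filled points passed an adjusted p-value of 0.05, namely Neurl3 and Maml2 to the right of 0 and Mib1, Rfng, Ctbp2 and Nrarp to the left.

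In whole lung, fewer cells of a type and less RNA per cell cannot be told apart, so marker genes were set beside the Notch genes. Calls are those of edgeR at an adjusted p-value ≤0.05, and beside each count of 0 stand the genes at an unadjusted p under 0.05 and the calls of DESeq2. Of the 11 pan-endothelial markers 1 (Cldn5) was called lower and 0 higher, and their summed level was 4367 to 4721 CPM in WT and 3948 to 4464 CPM in KO mice. The 7 arterial markers had 0 calls (0 unadjusted, 0 by DESeq2) and 769 to 895 CPM in WT against 796 to 968 CPM in KO mice, and the 7 capillary markers had 1 lower call (Cd300lg) and 850.2 to 946 against 791 to 872 CPM. The 9 genes of smooth muscle and pericytes had 0 calls (4 unadjusted, 3 by DESeq2) and 669 to 913 against 593 to 671 CPM, and the 7 fibroblast genes had 0 calls (2 unadjusted, 2 by DESeq2) and 1324 to 1579 against 1200.1 to 1283 CPM. The 8 alveolar epithelial genes had 1 lower call (Rtkn2) and 21566 to 24069 against 17544 to 22061 CPM. The 4 club cell genes (28522 to 37239.9 against 21821 to 29887 CPM) and the 6 ciliated cell genes (345 to 438 against up to 366 CPM) had 0 calls (1 unadjusted and 1 by DESeq2 in each list), with the lowest values in KO5.

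Of the 8 monocyte markers 6 were called higher in KO mice, although their sum, most of it from Ace, which endothelium also expresses, was 1705 to 1744 CPM in WT and 1750.0 to 2075 CPM in KO mice. The 8 B cell genes (128 to 137 against 234 to 1012 CPM) and the 7 T cell genes (42.9 to 46.1 against 49.7 to 119 CPM) did not overlap between the groups, with median log2 fold changes of 1.94 and 0.85, and 0.95 and 0.37 without KO5. The B cell genes had 0 calls in edgeR but all 8 at an unadjusted p under 0.05 and 6 called by DESeq2, and the T cell genes had 0, 6 and 5. Without KO5 edgeR called 6 B cell genes higher. The 6 alveolar macrophage genes had 1 higher call (Marco), at 402 to 637 against 533 to 681 CPM. All 5 red cell genes were called lower, at 2126 to 2277 against 1035 to 1411 CPM. The 6 cardiac muscle genes had 0 calls (0 unadjusted, 0 by DESeq2) and wide ranges of 446 to 1112 and 160.2 to 1173 CPM. The 6 heat shock genes had 4 lower calls, at 1108 to 1705 against 508 to 596 CPM, and the 8 immediate early genes had 0 calls (2 unadjusted, 1 by DESeq2), at 572 to 1308 against 482 to 736 CPM. Without WT5 and without WT6, 0 of the monocyte and 0 of the red cell genes were called, and 0 heat shock genes were without WT5. Without KO6, 0 red cell genes and 3 monocyte genes were called. No marker of these lists was at or under 3 counts in all libraries. The part of each of these differences in the ligand values was not tested.

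**Figure D5:**
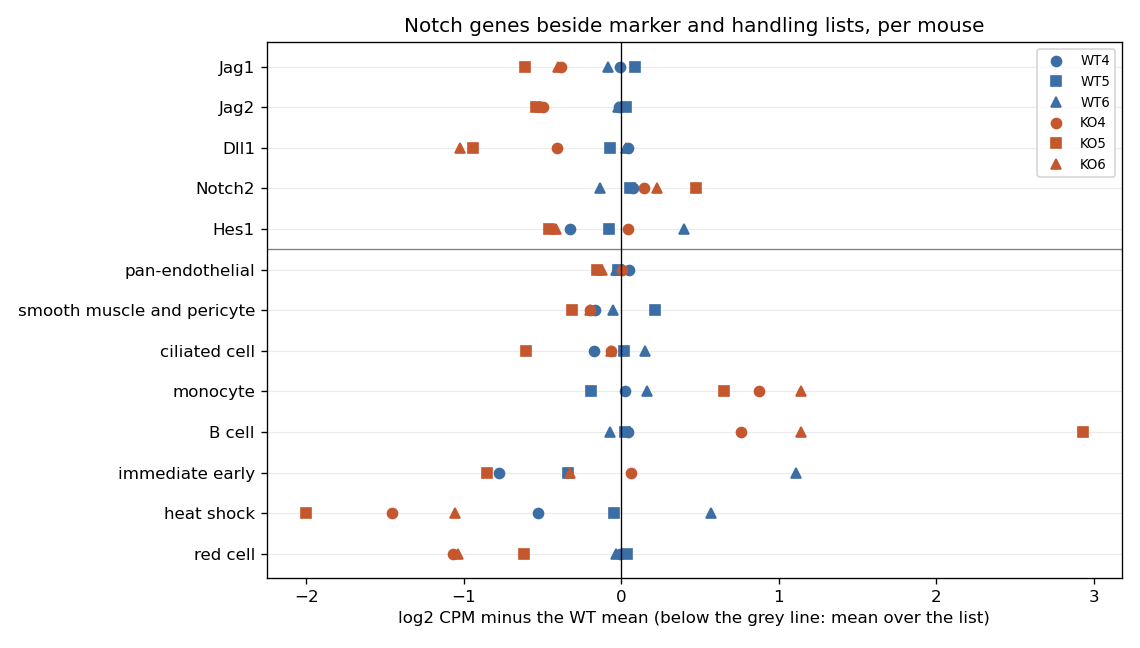
Log2 CPM of each mouse minus the WT mean (x axis) for 5 Notch genes, and below the grey line the mean over the genes of a marker or handling list. Jag1, Jag2 and Dll1 lie between -0.38 and -1.02 in KO mice (orange), where the pan-endothelial list lies between -0.15 and 0.01. The smooth muscle and pericyte list lies between -0.31 and -0.20 there, and the ciliated list between -0.60 and -0.07. The monocyte and B cell lists lie above 0 there.

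Set against the mean log2 CPM of the pan-endothelial genes in the same mouse, the difference between KO and WT mice was -0.37 for Jag1, -0.43 for Jag2 and -0.70 for Dll1, and the KO values of these 3 genes all lay below the WT values. It was 0.05 for Dll4, -0.03 for Notch1, 0.37 for Notch2, 0.29 for Notch3, -0.17 for Notch4, -0.19 for Hes1 and 0.11 for Hey1. On this scale the KO values of Notch2 all lay above the WT values, and those of Notch4 all lay below, with -0.61, -0.59 and -0.73 in WT4, WT5 and WT6 and -0.75, -0.82 and -0.88 in KO4, KO5 and KO6. Of all genes tested, 5.66% lay below in this way and 22.9% above. Egfl7 of this list and Efnb2 of the arterial list are also among the other pathway genes, and both were kept in the reference means. Against the arterial list, where the groups of Notch2 (0.26) overlapped, the difference was -0.48 for Jag1, -0.54 for Jag2 and -0.81 for Dll1. Against the list of smooth muscle and pericytes it was -0.23 for Jag1 and -0.28 for Jag2, still without overlap, and -0.55 for Dll1, whose groups then overlapped. On that scale the KO values of Notch2 (0.52), Notch3 (0.43) and Hey1 (0.26) all lay above the WT values, as for 33.1% of all genes, while 1.23% of all genes lay below. The genes of this reference list did not move as one. Their log2 fold changes ran from -0.98 for Cnn1 to 0.14 for Pdgfrb, with a median of -0.20, so the list mean does not stand for each gene alike. Jag2, known from epithelia, was not set against an epithelial list. The median log2 fold changes of those lists were -0.19 (alveolar), -0.31 (club cell) and -0.21 (ciliated cell). Without KO5 they were -0.13, -0.15 and -0.06. The part of epithelial cell content in the lower Jag2 values was not tested.

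The genes whose values ran closest to those of the 3 ligands were searched among 15384 tested genes with a mean of at least 1 CPM, by the root mean square difference over the 6 mice in log2 CPM relative to the WT mean. Closest to Jag2 were Nkd1, an inhibitor of Wnt signalling, at 0.0264, the phosphatase gene Dusp3 at 0.0386 and the clock repressor Ciart at 0.0423. Closest to Jag1 were Rap1gap at 0.0207, which acts on the GTPase Rap1, and the kinase genes Camkk1 at 0.0327 and Dapk1 at 0.0475. Closest to Dll1 were Wfdc1 at 0.0703, 4930486L24Rik at 0.107 and the potassium channel subunit gene Kcnf1 at 0.111. These distances were larger than those for the Jagged ligands. The distance was not scaled to the size of a change, and the log2 fold change of Dll1 (-0.77) was the largest in size of the 3 ligands. Nkd1 measured 202, 214 and 205 CPM in WT4, WT5 and WT6 and 147, 136 and 146 CPM in KO4, KO5 and KO6, a pattern chosen for its likeness to Jag2 and given as a description.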

How the data were processed

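Lung RNA of 3 WT and 3 KO mice at ZT10 was sequenced by the authors from stranded mRNA libraries. Reads were trimmed by the authors, mapped with STAR on GRCm38 and assigned to genes with HTSeq-count, and the deposited values are whole counts for 47069 genes without normalization (the submitters' notes list Trimmomatic 0.36, STAR 2.5.3a, Picard 2.9.0 and HTSeq 0.6.0). The strand setting and the annotation release used for counting are not given in the sources used here. Libraries were grouped by their titles, and where nothing says more, p-values measure the spread between these mice.

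KO was compared with WT in R 4.3.3 with edgeR 4.0.16 (quasi-likelihood test, TMM, default filter with a minimum count of 10, Benjamini-Hochberg adjustment over the 17037 genes kept), with no covariates. A standard error is the log2 fold change divided by the square root of F. Log2 CPM used a prior count of 2. The fits were tested on simulated data. Positions and exon lengths were taken here from GENCODE M21, and promoters from RefSeq for GRCm38.p6. The 10 genes and all lists were chosen with earlier results of these data known. Named genes were all members, pathway genes past the threshold or first in their class, and up to 3 genes per marker list. The 3 nearest genes of each member past the threshold were named too. Hes7, Heyl, Hey2, Efnb2, Ccnd1, Myc, Gata3, Lfng, Mfng, Egfl7, Jun, Atf3, Cnn1 and Pdgfrb were named after their values were seen. Alternatives were other size factors, other filters, DESeq2 1.42.0, edgeR's exact test, the replicate number as a block, and each mouse left out. Tables and figures used Python 3.11.15 and Matplotlib 3.10.9.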

Additional observations from a re-analysis of the deposited data

How the results depend on the processing

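Over all genes tested, 1089 passed an adjusted p-value of 0.05, and 1913 did with DESeq2, 66 with the replicate block and between 1 (without WT5) and 1278 (without KO4) with 1 mouse left out. It was 63 without WT6, 117 without KO6 and 254 without WT4. Of the 10 Notch genes 3 passed, 5 with DESeq2, which added Notch2 and Notch4, 1 with the replicate block (Jag2) and between 0 (without WT5, where 4, and 18.1% of all genes, had an unadjusted p under 0.05) and 4 with 1 mouse left out. Of the 64 other pathway genes 6 passed, 0 with the replicate block (17 at an unadjusted p under 0.05, and 8 by DESeq2) and between 0 (without WT5 or WT6, with 12 and 14 at an unadjusted p under 0.05) and 8 (without KO4) with 1 mouse left out, with 3 without KO5 and 1 without WT4 or KO6. The deviations of same-numbered mice from their group means had correlations of -0.03, -0.15 and -0.02 across genes. Those of mice with different numbers lay between -0.23 and 0.26. With 3 mice per group these values cannot show whether the mice were handled in pairs. The causes of these differences were not tested. The median log2 fold change of the 10 Notch genes was -0.19 and stayed between -0.25 and -0.15 with 1 mouse left out. Relative to the pan-endothelial genes it was -0.10, between -0.10 and -0.042 (without WT6; -0.059 without WT5) with 1 mouse left out, -0.21 relative to the arterial list and 0.044 relative to the smooth muscle and pericyte list. The log2 fold changes of Jag1, Jag2 and Dll1 kept their sign in the 7 alternative settings and in the 6 fits without a mouse.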
